A study of Mus musculus with 22 samples.

Results

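Broad accessible domains were taken from the ATAC-seq peak list of control retinal endothelial cells as every region at least 2000 bp wide on chromosomes 1 to 19 and X. This gave 964 domains out of 57261 control regions on these chromosomes, and they covered 2454509 bp. For each domain, the share of its length covered by gTKO regions and the number of gTKO regions in it (pieces) were counted. A domain covered over at least 80% of its length is called kept, one covered under 40% mostly lost, and the rest intermediate. Both the choice of domains and their class come from the lists themselves, so the class sizes describe the lists and are not tested.

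ATAC-seq uses the Tn5 transposase to cut and tag DNA that is not tightly packed by nucleosomes, and a peak caller then marks stretches with many cuts. Most such peaks are short and mark a single promoter or enhancer. Stretches of accessible DNA that run over kilobases are often seen at strongly active genes, where a promoter, nearby enhancers and the transcribed body merge, and at clusters of enhancers.

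The cells were sorted from retinas of C57BL/6 pups at postnatal day 6, although the cell type entry of the labels also calls them adult. Control pups were S1pr3-/- S1pr1flox/flox S1pr2flox/flox, and gTKO pups carried Rosa26-CreERT2 in addition. S1pr1, S1pr2 and S1pr3 encode receptors for sphingosine 1-phosphate, a circulating lipid that supports the endothelial barrier and restrains sprouting. S1pr3 was therefore missing in both groups, and both received 100 µg tamoxifen from postnatal day 1 to 3. The Rosa26 locus is active in most cell types, so recombination is not limited to endothelium. Each replicate pooled the retinas of 4 to 6 pups, and there were 3 ATAC-seq libraries per genotype.

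A single peak list stands for the 3 libraries of each genotype, so the spread between replicates cannot be seen. No p-value between genotypes can be given, and the values below describe these 2 lists. They hold start and end positions only, and the read depth behind them is unknown. The control list had 58311 regions and the gTKO list 50178, and the part of depth or of the peak calling in the differences was not tested. An annotation of build mm9, which the lists use, was not used here, so domains are named by mm9 position, no gene is named, and the endothelial identity of the cells was not checked against marker genes.

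Most broad domains remained covered in the gTKO list. Of the 964 domains, 743 (77.1%) were kept, 195 (20.2%) were intermediate and 26 (2.70%) were mostly lost. Over all 57261 control regions, 43.8% were covered at least 80% and 29.0% under 40%. Among control regions of 1000 to under 2000 bp these shares were 68.2% and 1.49%. The rule used these values, and nothing is read from the difference. The median coverage of a domain was 88.4% (quartiles 81.2% and 93.5%). In all, 84.0% of the domain sequence was covered, against 71.5% of the sequence of all control regions. Only 2 domains lay between 40% and 50%. The 26 mostly lost domains spread from 0% to 37.9%, with a median of 18.5%. They accounted for 67441 bp, or 17.2%, of the 392233 bp of domain sequence that was not covered.

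**Figure D1:**
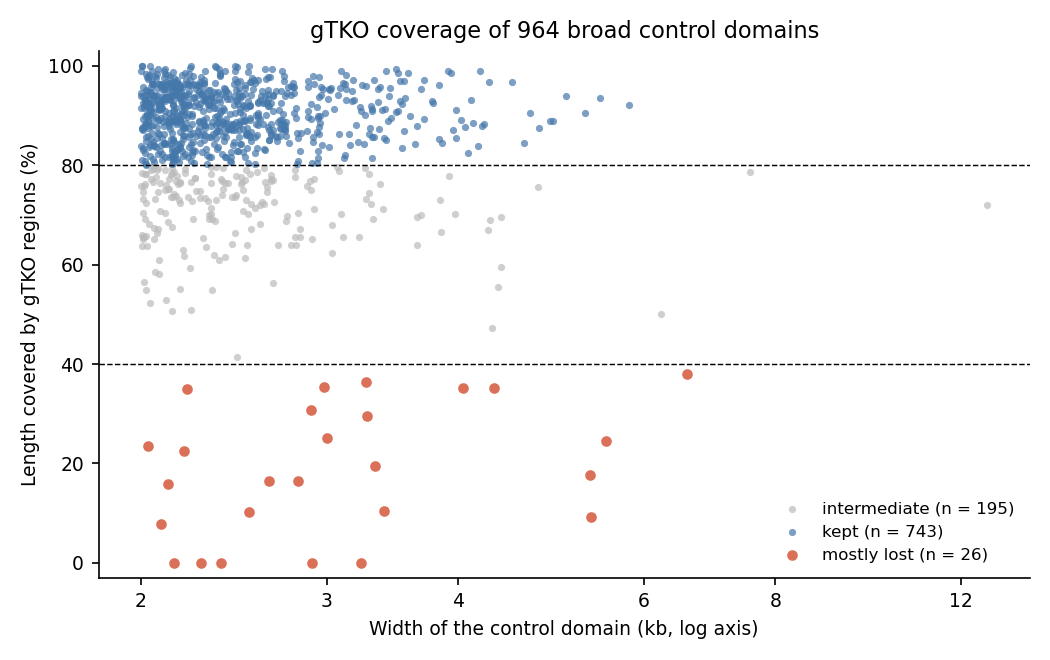
Share of each domain's length covered by gTKO regions (vertical axis, %) against its width in the control list (horizontal axis, kb, log scale), 1 point per domain, with dashed lines at 80% and 40%. Most points lie above 80%, and the 26 mostly lost domains are found from 2030 to 6595 bp.

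The domains next to the thresholds show how sharp each limit is. At the width limit, chr1:44175129-44177128 (2000 bp, 94.0% covered) and chr9:64584028-64586027 (2000 bp, 91.4%) were the narrowest members. Just 1 bp short of it were chr17:25152029-25154027 (94.6%) and chr17:56147120-56149118 (99.9%). At the upper coverage limit, chr12:70472258-70474277 (80%) and chr12:8777698-8780007 (80.2%) counted as kept. The intermediate domains closest to it were chr6:92040614-92042665 (79.9%) and chr9:118834233-118836564 (79.7%), so this limit divides a continuous range. At the lower limit, chr8:73236164-73242758 (37.9%) and chr12:86818662-86821932 (36.3%) counted as mostly lost. The next domains above it were chr12:56583682-56586149 (41.5%) and chrX:131579605-131583915 (47.3%).

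Loss was least frequent among control regions of intermediate width and was higher again among the widest domains. The share covered under 40% was 67.1% among control regions of 150 to under 200 bp and 8.23% at 500 to under 1000 bp. It was lowest at 1500 to under 2000 bp, with 21 of 1932 regions or 1.09% (exact 95% interval 0.674 to 1.66%). Among the broad domains it was 1.31% at 2000 to under 2500 bp (8 of 612, interval 0.566 to 2.56%) and 2.90% at 2500 to under 3000 bp (6 of 207, 1.07 to 6.20%). From 3000 bp upwards it reached 8.28% (12 of 145, 4.35 to 14.0%). These shares come from the values that chose and classed the domains, so they are given as a description. The intervals cover counting error only and treat regions as independent, although some mostly lost domains are neighbours. The kept share ran the other way, with 78.9% at 2000 to under 2500 bp and 69.7% from 3000 bp upwards. Of the 10 widest domains, 4 were mostly lost, 3 were intermediate and 3 were kept. The 12 mostly lost domains of at least 3000 bp each had 10 or more other control regions within 10 kb. Of 113 domains of this width with fewer, none was mostly lost. The median width was 2945 bp for mostly lost domains, 2351 bp for intermediate ones and 2328 bp for kept ones.

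**Figure D2:**
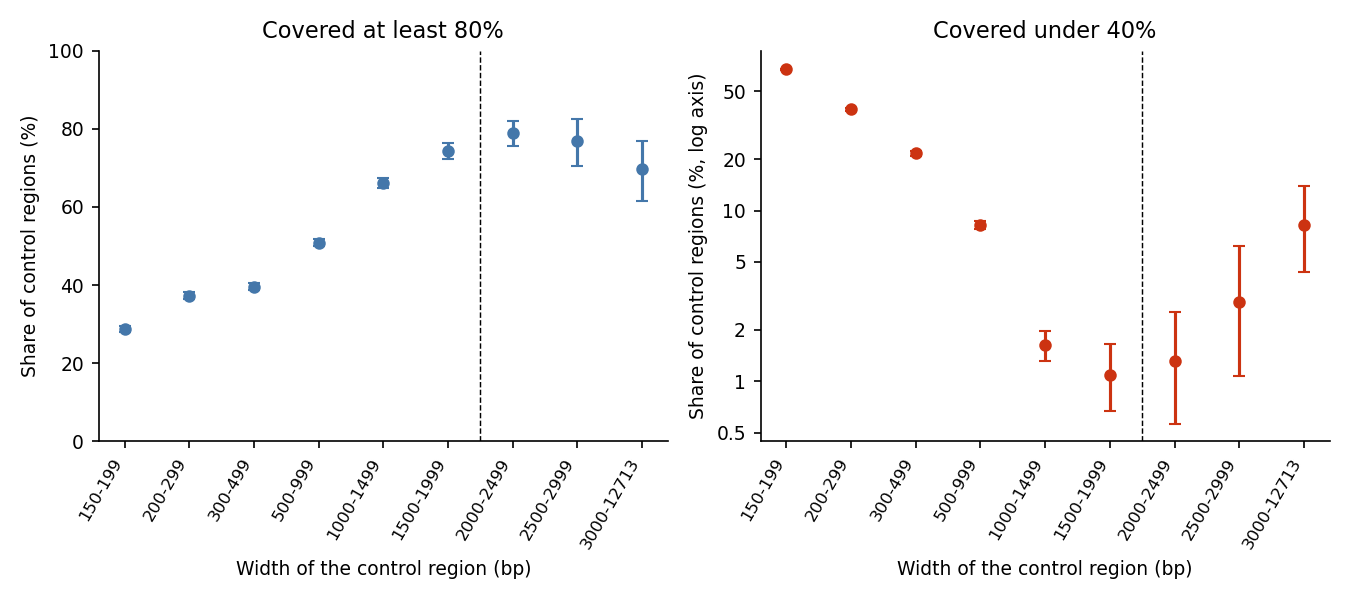
Share of control regions covered at least 80% (left) and under 40% (right, log axis) by gTKO regions, by width class in bp, with exact 95% intervals. To the right of the dashed line are the broad domains. The share covered under 40% falls from 67.1% to 1.09% and is 8.28% in the widest class.

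The reverse comparison gave no such class. On the same chromosomes the gTKO list had 343 regions of at least 2000 bp, and 342 of them were covered at least 80% by control regions. None was covered under 40% (0 of 343, exact 95% upper limit 1.07%). Over all 49550 gTKO regions, 82.8% were covered at least 80% and 10.2% under 40%. Of 3954 gTKO regions of 1000 to under 1500 bp, 99.6% were covered at least 80% and 1 under 40%. Of 1051 regions of 1500 to under 2000 bp, these were 99.7% and 0. The near-complete coverage is thus not particular to broad gTKO regions. The exception among the 343 was chrX:166412584-166414663, 2080 bp wide and 70% covered by 2 control regions. Of the 343 regions, 269 lay wholly inside control regions and 339 overlapped a broad control domain.

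The kept domains mostly differed from the control list at their ends. Of the 743 kept domains, 416 (56.0%) held a single gTKO region, 231 held 2 and 71 held 3. A gTKO region at least 2000 bp wide lay in 329 of them (44.3%), and one at least 1000 bp wide in 727 (97.8%). The uncovered length at the lower end had a median of 69.0 bp and at the upper end of 62 bp, so both ends were trimmed by like amounts. Of the uncovered sequence in kept domains, 75.9% lay at the ends and 24.1% between pieces. The share at the ends was 69.6% in mostly lost domains with a piece and 68.7% over all domains with a piece. In a domain with a single gTKO region, all uncovered sequence lies at the ends. Divided into 10 equal segments, kept domains were covered 64.8% in the first segment, 97.8% in the fifth and 65.3% in the last.

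A minority of kept domains reached further in the gTKO list. In 144 of 743 (19.4%) a gTKO region ran past at least 1 end. Over the 152 ends passed, the median reach was 25.5 bp. Among them 7 domains were covered over their whole length. The longest reach was at chr1:90116140-90118593, a domain of 2454 bp inside a gTKO region of 4476 bp that began 1529 bp before it and ended 493 bp after it. At chr17:29626341-29628690 (2350 bp), the gTKO region measured 3181 bp. The other 5 fully covered domains lay in gTKO regions of 2018 to 2591 bp.

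Among the kept domains, whose coverage is at least 80% by the rule, the 10 widest measured 4502 to 5809 bp. The widest of these, chr10:79610307-79616115 (5809 bp), held 4 gTKO regions that covered 5350 bp (92.1%), of which the largest took up 4452 bp. chr17:34254687-34260137 (5451 bp) was covered by a single gTKO region of 5090 bp (93.4%). chr17:71197964-71203244 (5281 bp) was covered 90.4% by 3 gTKO regions, and chr19:46574020-46579078 (5059 bp) 94.0% by 4. In these 4 domains the longest uncovered stretch was 91 to 280 bp. The next 6 kept domains by width, from 4502 to 4925 bp, were covered 84.5% to 96.8%. They were chr10:27539835-27544759 (88.8%), chr16:30062680-30067568 (88.8%), chr8:73131339-73136107 (87.4%), chr15:59477923-59482601 (90.4%), chr14:26276571-26281186 (84.5%) and chr1:88421279-88425780 (96.8%). The longest uncovered stretch among these 6, 526 bp, was found in the domain on chromosome 8.

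Intermediate domains were more often broken up. Of 195, 143 (73.3%) held 2 or more gTKO regions, against 327 of 743 kept domains (44.0%). This was so for 13 of 26 mostly lost domains (50.0%) and for 483 of all 964 (50.1%). Gaps between pieces lower the coverage that sets the class, so these contrasts between classes are tied to the class limits. The same holds for the position of uncovered sequence between pieces. Between pieces lay 40.2% of the uncovered sequence of intermediate domains. They were covered 36.9% in the first of the 10 segments, 81.5% in the fifth and 38.0% in the last. The largest number of pieces, 10, was found in the widest domain of the list, chr2:26448600-26461312 (12713 bp, 71.9% covered). chrX:131579605-131583915 (4311 bp) held 8 pieces, none of which covered more than 428 bp of it. chr8:87496961-87504520 (7560 bp) held 6 pieces and was covered 78.7%. The kept domain with most pieces was chr10:27539835-27544759, with 6 pieces in 4925 bp.

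Mostly lost domains held a few short gTKO regions or none. Of 26, 5 had no gTKO region, 8 had 1 and 13 had 2 or more. No gTKO region in them ran past either end, and the largest measured 1419 bp. Their 47 gTKO regions had a median width of 260 bp, and 26 of them were under 300 bp wide. In kept domains the median was 1556 bp, and 14.5% of 1197 were under 300 bp. The longest uncovered stretch of a mostly lost domain had a median of 1842 bp (range 1025 to 3231 bp), against 143 bp in kept domains. Coverage was low along the whole length, at 9.67% in the first segment, 21.5% in the fifth and 14.7% in the last, and no segment exceeded 28.7%. The low level follows from the class limits, which do not set where along a domain the coverage lies. The longer uncovered stretches and the shorter gTKO regions are also tied to those limits.

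**Figure D3:**
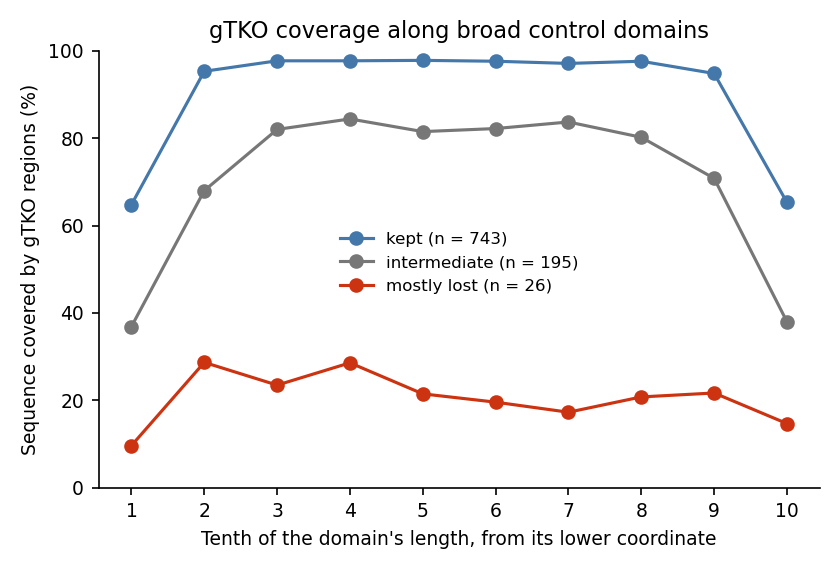
Share of sequence covered by gTKO regions (vertical axis, %) in each of 10 equal segments of the domains' length (horizontal axis), summed over the domains of each class. Kept and intermediate domains were covered least in the first and last segment (64.8% and 65.3%, and 36.9% and 38.0%), and mostly lost domains were covered at most 28.7% in any segment.

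The 10 widest mostly lost domains held between 1 and 8 gTKO regions each. chr8:73236164-73242758 (6595 bp) held 8 gTKO regions, the largest of 562 bp, and had an uncovered stretch of 1480 bp. chr15:101105347-101110869 (5523 bp) held 3 that covered 1360 bp (24.6%). chr5:143646795-143652146 (5352 bp) held 3 that covered 493 bp (9.21%), none longer than 186 bp. chr1:135966203-135971533 (5331 bp) held 4 that covered 941 bp (17.7%). These 4 were close in width to the widest kept domains and were covered 9.21% to 37.9% of their length, against 90.4% to 94.0% for those. That gap in coverage follows from the class limits.

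Of the remaining 6, the least covered was chr7:135147023-135150425 (3403 bp), where 2 gTKO regions covered 358 bp (10.5%). chr18:35024658-35027993 (3336 bp) held a single gTKO region of 647 bp (19.4%). chr6:134943535-134946812 (3278 bp) held a single one of 968 bp (29.5%). chr5:143642370-143646415 (4046 bp, 35.1%) held the largest piece of all, 1419 bp, and left 2443 bp uncovered in 1 stretch. chr8:74847636-74851964 (4329 bp) was covered 35.1% by 2 regions, and chr12:86818662-86821932 (3271 bp) 36.3% by 4.

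The 5 domains without any gTKO coverage were 2148 to 3231 bp wide. They were chr8:74852875-74856105 (3231 bp), chr8:124347810-124350718 (2909 bp), chr7:135151963-135154345 (2383 bp), chr8:73230785-73233065 (2281 bp) and chr5:143652315-143654462 (2148 bp). Over all control regions, 27.0% had no coverage, and most of those were narrow. All but chr8:124347810-124350718 had another mostly lost domain within 10 kb.

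**Figure D4:**
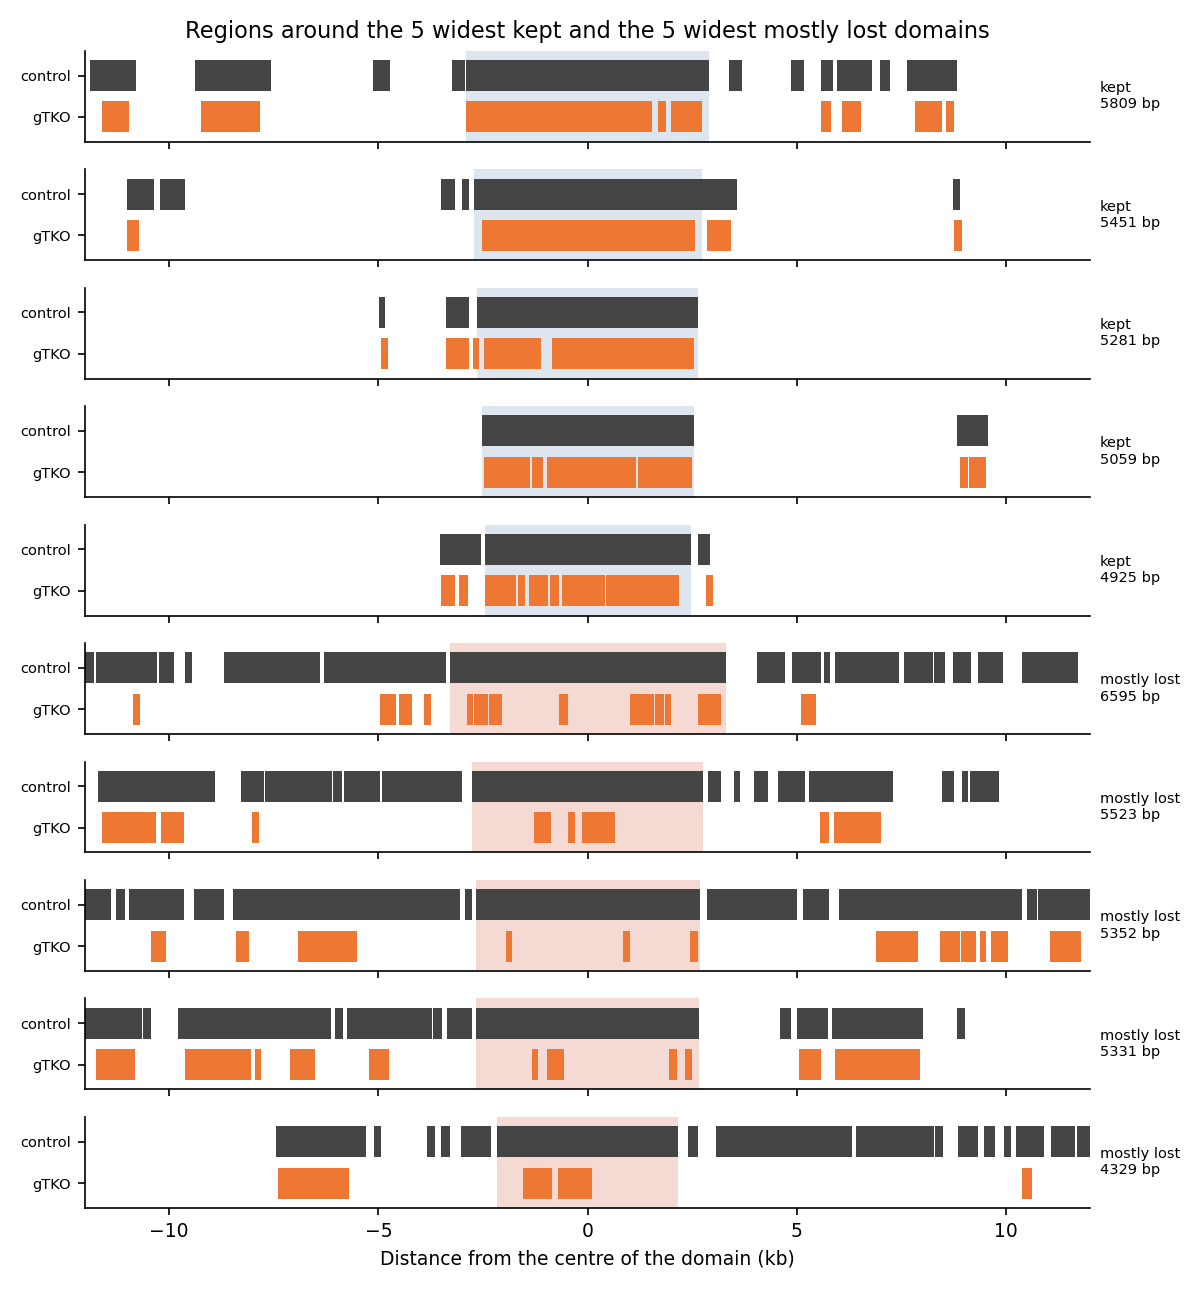
Control regions (dark) and gTKO regions (orange) around the 5 widest kept (upper panels) and the 5 widest mostly lost domains (lower panels), drawn to scale by distance from the domain's centre (kb), with the domain shaded. Kept domains hold long gTKO regions, and mostly lost domains lie among many control regions and hold a few short gTKO regions.

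Mostly lost domains lay where other control regions were dense, which the rule did not use. Within 10 kb on either side, they had a median of 12.5 other control regions (quartiles 11 and 15.8, range 7 to 21). Intermediate domains had a median of 3 and kept domains of 2 (quartiles 0 and 4). None of the 26 stood alone, whereas 198 of 743 kept domains (26.6%) had no other control region within 10 kb. The next control region was under 500 bp away for 24 of 26 mostly lost domains (92.3%), 92 of 195 intermediate ones (47.2%) and 258 of 743 kept ones (34.7%). Another broad domain lay within 10 kb of 22 of 26 (84.6%), 42 of 195 (21.5%) and 56 of 743 (7.54%), respectively. Broad neighbours are themselves members chosen by the rule. A mostly lost neighbour was found for 14 of the 26, 15 of the 195 and 3 of the 743, so some mostly lost domains count each other.

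Grouped by this density, the share of kept domains fell step by step. It was 88.8% of 223 domains with no neighbour, 81.7% of 301 with 1 to 2, 79.6% of 226 with 3 to 5, 71.4% of 126 with 6 to 9 and 33.0% of 88 with 10 or more (29 domains, interval 23.3 to 43.8%). None of the domains with up to 5 neighbours was mostly lost. There were 4 among those with 6 to 9 neighbours and 22 (25.0%, interval 16.4 to 35.4%) among those with 10 or more. The same held for domains of like width. Of 113 domains of at least 3000 bp with up to 9 neighbours, 92 were kept and none was mostly lost (exact upper limit 3.21%). Of 32 such domains with 10 or more neighbours, 9 were kept and 12 were mostly lost. Among domains of 2000 to under 2500 bp, 87.0% of 169 without neighbours and 41.2% of 34 with 10 or more were kept. The intervals treat domains as independent, although domains near each other share neighbours and count each other. Since 14 of the 26 mostly lost domains lay within 10 kb of another, the intervals do not measure the full uncertainty.

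The narrower control regions around mostly lost domains were themselves seldom covered. These regions are no members and did not enter the rule. The control region nearest to a mostly lost domain lay at a median of 97.5 bp, so neighbours and domain are not independent. Within 10 kb of a mostly lost domain, 22 of 33 control regions of 1000 to under 2000 bp were covered under 40% (66.7%, interval 48.2 to 82.0%). Near kept domains, and away from mostly lost ones, this was so for 14 of 261 (5.36%, interval 2.96 to 8.84%), and among all control regions of that width for 116 of 7774 (1.49%). At 500 to under 1000 bp the shares were 80.4% of 56, 14.6% of 403 and 8.23% of 12974. At 300 to under 500 bp they were 89.4% of 47, 32.6% of 393 and 21.6% of 11113. The surroundings of mostly lost domains held 19% of all regions of 1000 to under 2000 bp covered under 40%, and 0.424% of all regions of that width.

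Regions in dense surroundings of kept domains were covered under 40% less often than those near mostly lost domains. Around the 29 kept domains with 10 or more neighbours, 4 of 46 regions of 1000 to under 2000 bp were covered under 40% (8.70%, interval 2.4 to 20.8%), and 20 of 64 of 500 to under 1000 bp (31.2%, interval 20.2 to 44.1%). Both shares are below the 66.7% and 80.4% near mostly lost domains. They are above the 5.36% and 14.6% near kept domains of any density, and above the 1.49% and 8.23% of all control regions. Several regions come from the same place and are not independent, so the intervals do not measure these differences. For domains with 10 or more neighbours, the median share of the flanking control sequence that was covered was 56.4% for kept, 35.9% for intermediate and 28.8% for mostly lost ones. Flanking sequence here includes other broad domains, which are themselves classed by coverage. Summed over the flanks of these domains, 56.2% was covered beside kept, 36.7% beside intermediate and 28.1% beside mostly lost ones. With broad domains left out of the flanks, these shares were 52.9%, 31.7% and 13.1%. The flanks of the mostly lost ones also held more control sequence, with a median of 12327 bp against 6283 bp for the kept ones. Examples of kept domains in dense surroundings are chr10:79610307-79616115, with 10 neighbours, and chrX:32098704-32102286 (3583 bp, 98.5% covered), with 16. A contrast within this group is chr7:26003662-26006991 (3330 bp), which was covered 85.7% although none of the control sequence in its flanks, 15 regions, was covered. The last 2 were chosen after their values were seen.

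**Figure D5:**
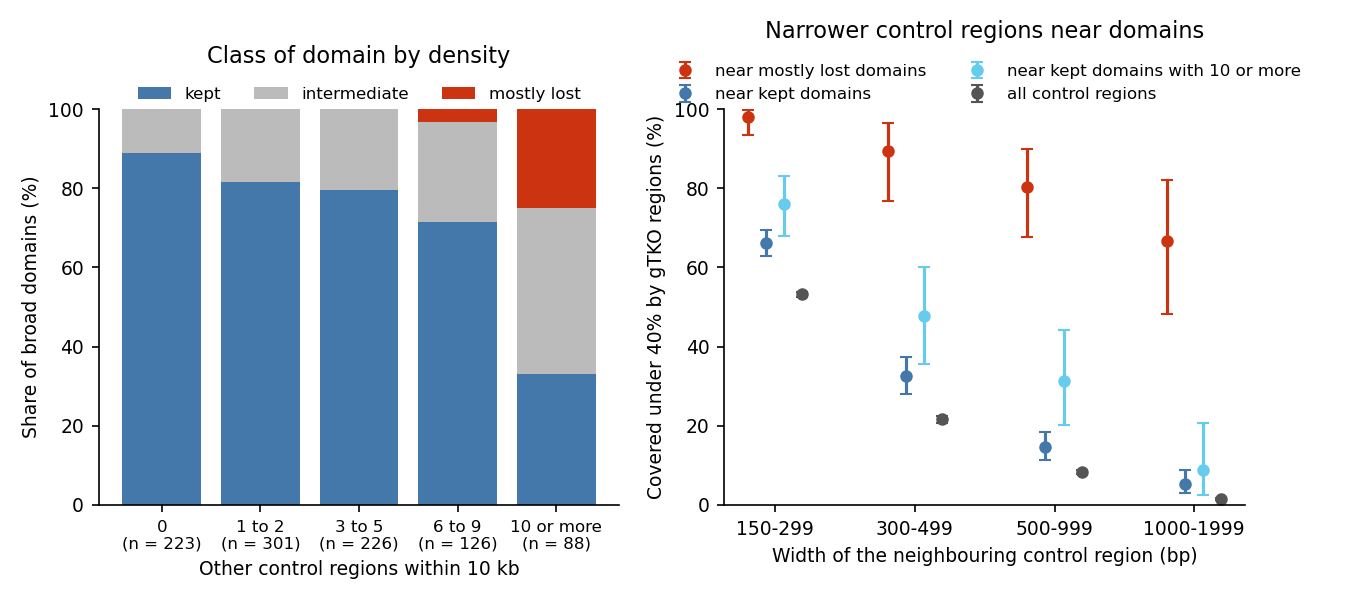
Left, share of domains in each class (%) by the number of other control regions within 10 kb, and right, share of narrower control regions covered under 40% (%) by their width in bp, near domains and in the whole list, with exact 95% intervals. Mostly lost domains are found from 6 neighbours upwards and make up 25.0% of the densest group, and regions near them were covered under 40% at every width more often than those near kept domains.

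The 26 mostly lost domains fell into 18 places when those no more than 10 kb apart were joined, 12 with 1 domain, 4 with 2 and 2 with 3. They lay on 11 chromosomes. Chromosome 8 held 8 of the 26 in 5 places, and 69 of the 964 domains. Chromosome 11 had the most domains, 93, of which 71 were kept and none was mostly lost. Chromosomes 3, 4, 10, 13, 14, 16, 19 and X held no mostly lost domain either. Over all domains the share mostly lost was 2.70%. Of the 18 places, 13 also held a broad domain that was kept or intermediate.

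The place with most control sequence was on chromosome 5. In chr5:143632370-143664462, which is the 3 domains with 10 kb on either side, 20 control regions covered 29175 bp and 14 gTKO regions 6659 bp. The 3 domains, covered 35.1%, 9.21% and 0%, followed each other closely, and an intermediate domain of 4368 bp (55.4%) began 1023 bp after the last. The other place with 3 was on chromosome 8, chr8:73220785-73252758, where 23 control regions covered 26417 bp and 17 gTKO regions 7020 bp. Its domains of 2281, 2897 and 6595 bp were covered 0%, 30.8% and 37.9%. In chr8:74837636-74866105, 21 control regions covered 18311 bp and 4 gTKO regions 3453 bp. There an intermediate domain of 2141 bp (79.5% covered) lay 3138 bp before a mostly lost domain of 4329 bp (35.1%) and one of 3231 bp without coverage.

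In several places a mostly lost domain lay within 2 kb of a better covered one. The widest domain, on chromosome 2, was covered 71.9%, and 106 bp after its end followed chr2:26461419-26463952 (2534 bp), covered 10.3%. In the next 10 kb after this domain none of 7338 bp of control sequence in 11 regions was covered. On chromosome 6, the kept domain chr6:134940086-134942179 (2094 bp, 85.4%) lay 1355 bp before the mostly lost chr6:134943535-134946812 (29.5%). On chromosome 8, chr8:87496961-87504520 (78.7%) lay 1771 bp after chr8:87492979-87495189 (2211 bp, 35.0%). On chromosome 18, chr18:35018718-35022983 (4266 bp, 66.9%) ended 1674 bp before chr18:35024658-35027993 (19.4%), after which none of 2450 bp in 8 control regions was covered.

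Mostly lost and better covered domains also lay in turn along a stretch. On chromosome 9, chr9:20833649-20838411 (4763 bp) was covered 75.5%. It stood between chr9:20830705-20832827 (2123 bp, 15.9%), 821 bp before it, and chr9:20839603-20842603 (3001 bp, 25.2%), 1191 bp after it. On chromosome 12, the mostly lost domain of 3271 bp (36.3%) lay between intermediate domains of 2203 bp (79.3%) and 2832 bp (65.5%). On chromosome 15, the mostly lost domain of 5523 bp (24.6%) lay between domains of 2798 and 2014 bp, both covered 65.6%. On chromosome 1, domains of 2030 bp (23.5%) and 5331 bp (17.7%) lay between an intermediate domain of 3657 bp (64.0%) and a kept one of 2192 bp (91.9%).

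The flanks of domains were often unequal in coverage, in every class. All 26 mostly lost domains had control regions on both sides. The better covered side had a median coverage of 43.6% and the other side of 6.08%, and in 9 of 26 the poorer side had no coverage. For the 272 kept domains with control regions on both sides, these medians were 78.3% and 52.2%, and in 62 the poorer side had no coverage. For the 118 such intermediate domains they were 69.3% and 32.2%, and in 26 the poorer side had no coverage. Sides were ordered by their own values, so that some difference between them is built in.

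The remaining 7 places held between 8 and 22 control regions each. In chr7:135137023-135164345, 17 control regions covered 10234 bp and 3 gTKO regions 577 bp, so that 5.64% was covered. In chr17:36078013-36100101 the share was 3.77% of 4298 bp, and in chr17:36056249-36079067, which overlaps it at the lower end and shares 1 control region with it, it was 14.0% of 8329 bp. In chr8:86736035-86758680, 22 control regions covered 11905 bp, of which 10.8% was covered, and in chr8:124337810-124360718 it was 14.2% of 7004 bp. On chromosome 7, chr7:19869612-19891806 held 20 control regions, of which 16 had no coverage and 27.0% of the sequence was covered, and on chromosome 5, chr5:125850980-125873960 held 13, of which 8 had none and 47.3% of the sequence was covered. Across the 18 places, the share of control sequence covered ranged from 3.77% to 65.9%, with a median of 26.8%.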

How the data were processed

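The deposited files hold the start and end of ATAC-seq peaks, 1 list per genotype, and no other value. Bowtie2, Picard, MACS2 and bedtools appear among the tools, and mm9 as the build, per the submitters' processing notes. Not given in the sources used here are the threshold of the peak calls, filters on duplicates and whether replicates were pooled. The 16 RNA-seq libraries were not analysed here.

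Coverage of each control region by gTKO regions was computed with Python 3.11.15, numpy 2.4.6, pandas 2.3.3 and scipy 1.17.1, tested on simulated data, and equalled that of bedtools 2.31.1 for all 964 domains. Figures used matplotlib 3.10.9. Chromosome Y and unplaced sequences were left out. Shares have exact 95% Clopper-Pearson intervals, for counting error only. Named regions are the 10 widest kept and mostly lost domains, those without coverage and the 5 with most pieces. Also named are the 2 on either side of each threshold, and the neighbours and places described with the mostly lost domains. Some fully covered domains, the exception of the reverse comparison and examples of kept domains in dense surroundings were named as well. The members, classes and alternatives were chosen with earlier results of these data known. Positions are 1-based.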

Additional observations from a re-analysis of the deposited data

How the results depend on the processing

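More domains were kept than mostly lost under every alternative run, but the kept were under 50% of the domains with control regions joined and with kept set at 90%. As reported above, 50.1% of domains were split, meaning that they held 2 or more gTKO regions. At a minimum width of 1500 bp there were 2896 domains (2179 kept, 47 mostly lost), 35.0% were split and 84.4% of their sequence was covered. At 3000 bp there were 145 (101 kept, 12 mostly lost), with a median coverage of 87.8%, 73.8% split and 79.6% of sequence covered. The reverse comparison at 1500 bp gave 1390 gTKO regions covered at least 80%. Without gTKO regions under 300 bp, the median was 87.0%, 36.2% were split and 81.4% of sequence was covered. Joining gTKO regions no more than 500 bp apart gave 92.4%, 3.63% and 88.0%, so that most splits were gaps of at most 500 bp. Joining control regions in the same way gave 1983 domains, of which 143 were mostly lost and 720 kept, with 73.3%, 73.4% and 67.8%. This set includes runs of narrow regions. With chromosome Y and unplaced sequences 84.3% of sequence was covered. Kept at a limit of 90% were 405 domains. Leaving out each chromosome in turn gave 871 to 955 domains, 672 to 738 kept and 18 to 26 mostly lost (18 without chromosome 8), a median of 88.2% to 88.6%, 49.0% to 50.8% split and 83.8% to 84.6% of sequence covered. Flanks of 5 and 20 kb in place of 10 kb were added after seeing the data. At 5 kb, the median number of other control regions was 1 near kept and 7 near mostly lost domains, and 46.3% (intermediate) and 26.3% (mostly lost) of flanking control sequence was covered. At 20 kb, the median number was 6 (intermediate) and 24.0 (mostly lost), and 63.0% (kept), 50.4% (intermediate) and 33.3% (mostly lost) was covered, against 64.0%, 47.8% and 30.0% at 10 kb. With broad domains left out of the 10 kb flanks, another choice made after seeing the data, 62%, 45.5% and 14.1% was covered. Flanks of neighbouring domains overlap, so some sequence is counted more than once. The order of the classes was the same at all 3 sizes. No paired analysis was possible because the 3 libraries of a genotype share a peak list, which also meant that leaving out a replicate could not be tried. Alternatives that need a sequence or an annotation of mm9 were not run. Without read depth, a narrower gTKO region cannot be read as lower accessibility.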

Other observations

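Broad regions on sequences outside chromosomes 1 to 19, X and Y were left out above. The control list held 20 of them and the gTKO list 17. Of the 20 control regions, 17 were covered at least 80% by gTKO regions and 2 were not covered at all, with a median of 99.1%. The widest gTKO region of the whole list, 12071 bp, was among them. It lay on unplaced sequence of chromosome 8 and spanned 2 control regions. The 2 without gTKO coverage, 2050 and 2710 bp wide, were both on sequence not assigned to any chromosome.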
